A study of Homo sapiens with 6 samples.

Results

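The genes described here are interferon-stimulated genes and sensors of foreign nucleic acid. They were 37 genes chosen by name and matched by symbol to the gene table, of which 34 were analysed out of 37202 genes in all. The ligand genes IFNB1 and IFNL1 and the chemokine gene CXCL11 were not analysed here. RNA was sequenced in 6 libraries of HK2 cells, a human kidney proximal tubule line immortalised with papillomavirus oncogenes, with 3 libraries in each group. The NR3C2-OE cells carry the genotype label of overexpression and were transfected with a plasmid for NR3C2, the mineralocorticoid receptor, using the cationic lipid Lipofectamine 2000. The Control cells are labelled normal. The labels do not say whether Control cells received an empty plasmid or the lipid, when RNA was taken, whether a receptor ligand was added, or whether libraries came from separate cultures, so the p-values reflect the scatter among these 6 libraries, which could be of technical origin.

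Plasmid DNA that reaches the cytosol can be detected by cyclic GMP-AMP synthase (CGAS), which signals through STING1 and the kinase TBK1 to the transcription factor IRF3. Viral-type RNA is detected by the helicases RIGI and IFIH1, which signal through MAVS to the same kinase. IRF3 then switches on interferon genes and some target genes directly, and secreted interferon acts through receptors, JAK kinases and the complex ISGF3, which contains STAT2 and IRF9 and binds the interferon-stimulated response element (ISRE). The question put to these data was whether the plasmid-transfected libraries differed from the Control libraries in this programme. A response present in both groups would not appear as such a difference, so absolute levels are given as well.

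The ISRE is the shared sequence of most of these genes, and its form in their promoters is shown because the results below are read by it. RefSeq promoter windows of build GRCh38.p14, from 250 bases before to 50 bases after the gene start, matched 24 of the 34 genes. The ISRE was searched as TTTC, any 2 bases and TTTC again, or GAAA, any 2 bases and GAAA on the other strand, and occurred in 16 of these 24 promoters (66.7%), against 3.65% of all 27305 promoters and 2.93% of the 12716 promoters of tested genes. The letters TTCNNNGAA of the gamma-activated site (GAS), which are identical on both strands, occurred in 5 of 24 (20.8%), against 7.88% and 6.42%. A match describes letters and is not evidence of binding, and forms with a shorter spacer, such as GAAACGAAA, were not counted. The lines below give 60 bases of each promoter, 5′ to 3′ on the gene's strand, with the matched letters in capitals. BST2, ISG15, OAS3, IFIT1, IFI27 and CXCL10 are shown as ISRE genes from the highest to nearly the lowest level, and IRF9 is shown with its GAS letters because it stood farthest from Control among the well-measured genes.
BST2 (chr19:17405721-17405780, minus strand): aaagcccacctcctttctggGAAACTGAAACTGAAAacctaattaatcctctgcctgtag
ISG15 (chr1:1013364-1013423, plus strand): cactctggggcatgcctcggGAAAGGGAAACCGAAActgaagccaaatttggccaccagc
OAS3 (chr12:112938306-112938365, plus strand): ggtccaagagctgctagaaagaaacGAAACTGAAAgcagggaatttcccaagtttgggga
IFIT1 (chr10:89392487-89392546, plus strand): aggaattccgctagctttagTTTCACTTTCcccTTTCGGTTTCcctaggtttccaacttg
IFI27 (chr14:94110608-94110667, plus strand): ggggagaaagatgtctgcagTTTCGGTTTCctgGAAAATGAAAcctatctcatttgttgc
CXCL10 (chr4:76023684-76023743, minus strand): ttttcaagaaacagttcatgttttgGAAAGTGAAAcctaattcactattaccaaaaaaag
IRF9 (chr14:24161177-24161236, plus strand): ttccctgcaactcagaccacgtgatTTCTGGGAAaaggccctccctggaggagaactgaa
In these windows BST2, ISG15, IFIT1 and IFI27 each carried 2 matches, overlapping each other in BST2 and ISG15, while OAS3 and CXCL10 carried 1.

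The deposited estimated counts totalled between 77737375 and 132533971 per library. NR3C2 itself, the check of the labels, stood at 5.97, 6.26 and 5.16 FPKM (fragments corrected for transcript length and library size) in Control and at 12.1, 6.95 and 7.41 FPKM in NR3C2-OE, higher in 3 of 3 libraries, with an edgeR adjusted p of 0.486. Of 21509 genes tested with edgeR, 6 were called at an adjusted p below 0.05. Epithelial keratin genes KRT8, KRT18 and KRT19 and the kidney lineage factor PAX8 were abundant, between 56.5 and 205.4 FPKM. In contrast, the epithelial cadherin gene CDH1 was between 0.0798 and 0.165 FPKM, and the kidney lineage factor PAX2 between 0.0509 and 0.127 FPKM. The proximal tubule genes CUBN and AQP1 were at or below 0.0658 FPKM in every library, and SLC5A2 was between 0.451 and 1.08 FPKM. GGT1, a brush border enzyme gene, stood at 16.3, 17.4 and 45.5 FPKM in Control and at 56.7, 53.9 and 51.1 FPKM in NR3C2-OE (edgeR adjusted p = 0.603).

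None of the interferon response and sensor genes was called changed. Of the 34, 30 passed the filter on low counts, and 0 of these 30 had an edgeR adjusted p below 0.05, against 0.0279% of all tested genes. DESeq2 likewise called 0 higher and 0 lower, against 0.679% and 0.795% of all genes. It gave no adjusted p for CXCL10 and RSAD2, which it therefore could not call. At an unadjusted edgeR p below 0.05, 3 were higher in NR3C2-OE (IRF9, IFI16 and CXCL10), against 4.43% of all genes, and 0 were lower, against 4.76%. Each of these 3 had an adjusted p of 0.369 or more, and leaving out Control library 1, Control library 3 or NR3C2-OE library 1 reduced their number to 1.

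The direction of the estimates leaned slightly upward. The log2 fold change (NR3C2-OE over Control) was positive in 19 and negative in 11 of the 30 tested genes, with a median of 0.098 beside 0.001 over all genes. The median was 0.051 without NR3C2-OE library 2, 0.060 without Control library 1 and 0.047 when at least 50 counts in 3 libraries were required. It ran from -0.32 for GBP1 to 1.28 for CXCL10. The summed FPKM of the 34 genes was 238.5, 247.9 and 233.1 in Control and 245.3, 262 and 247.2 in NR3C2-OE, so these sums overlapped between the groups. NR3C2-OE library 2 held the highest value of 7 genes and the lowest of 1, and Control library 3 the highest of 4 and the lowest of 7. In bulk RNA a large change in a few transfected cells and a small change in all cells cannot be told apart, nor can fewer cells of a type and less RNA per cell.

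The 95% intervals show what sizes of change these libraries leave possible. For 26 of the 30 genes the interval ended below a log2 change of 1, and for 20 it ended below a 1.5-fold increase. The interval lay within 0.5 either way for 15 genes. The 4 genes whose interval reached beyond 1 were RIGI, IFI27, RSAD2 and CXCL10.

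**Figure D1:**
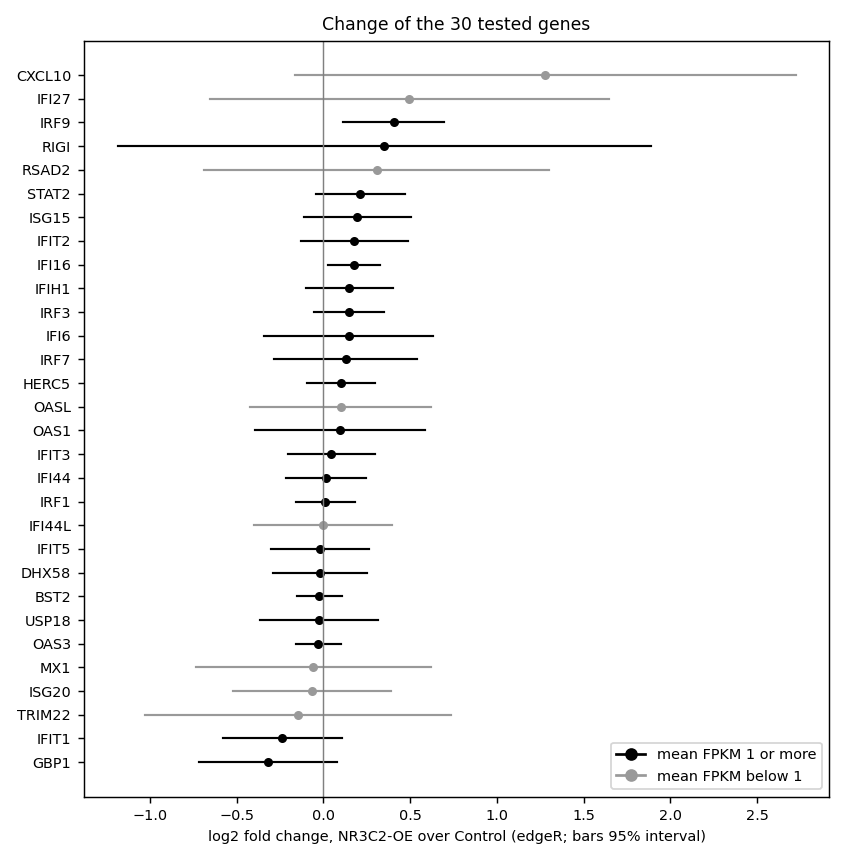
Log2 fold change of NR3C2-OE over Control for the 30 tested genes (x axis; points are edgeR estimates and bars their 95% intervals), ordered by size, with genes of mean FPKM below 1 in grey. Only the intervals of IRF9 and IFI16 lie wholly above 0, and the widest belong to CXCL10, RIGI, IFI27, RSAD2 and TRIM22.

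The levels of the programme spanned from BST2 at a mean of 90.3 FPKM to XAF1 at 0.00213 FPKM, with a median of 2.04. At 10 FPKM or more stood 7 genes, between 1 and 10 stood 15, and below 1 stood 12. The upper class held BST2, IFI16, ISG15, HERC5, IFI6, OAS3 and IRF3. The lower class held MX1, IFI44L, ISG20, IFI27, OASL, TRIM22, CXCL10, RSAD2, CCL5, OAS2, MX2 and XAF1. Several genes widely used as markers of interferon exposure, among them MX1, IFI27, RSAD2 and OASL, were thus below 1 FPKM in both groups.

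**Figure D2:**
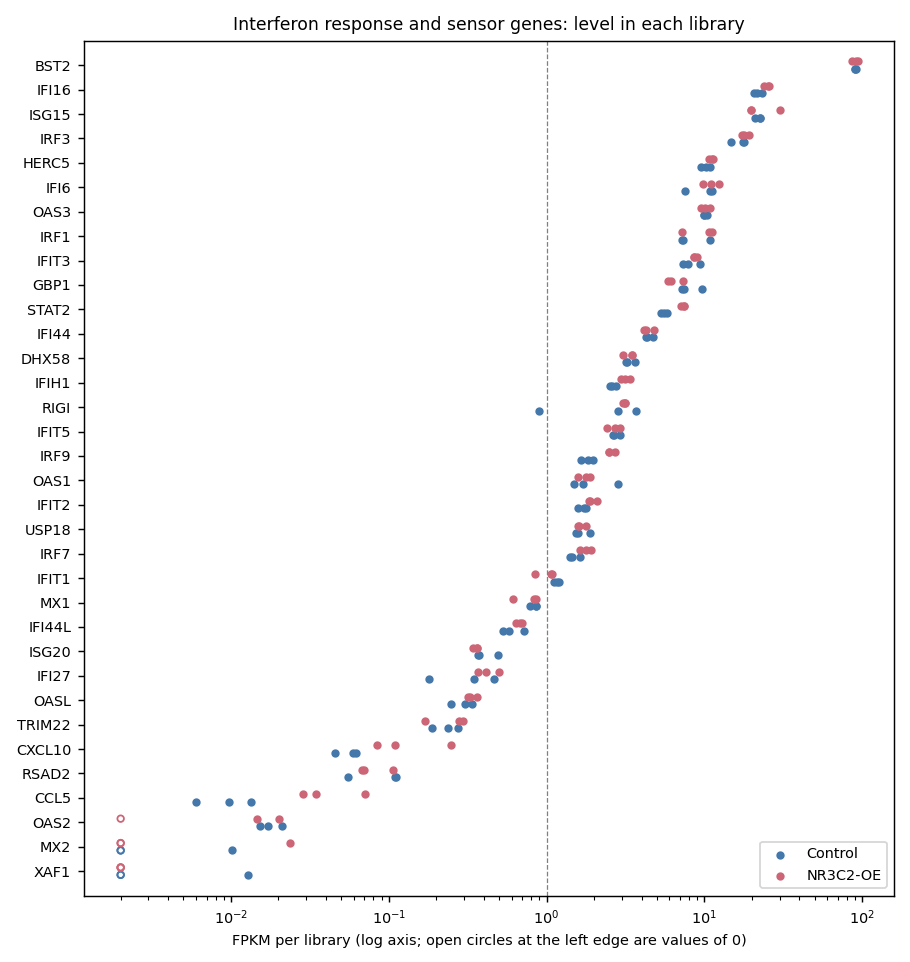
FPKM of the 34 genes in each library (log x axis; 3 Control libraries in blue, 3 NR3C2-OE libraries in red; open circles at the left edge are values of 0; the dashed line marks 1 FPKM). The colours lie together for most genes, while IFI16, IFIT2, STAT2, IRF9, IFIH1, CXCL10 and CCL5 show every red point to the right of every blue point. For IFIT1 and ISG20 every red point lies to the left of every blue point.

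Among the sensors, IFI16 had the most precise difference. IFI16, a DNA-binding protein that assists STING1, stood at 21.5, 23.4 and 20.5 FPKM in Control and at 25.6, 24.0 and 25.2 FPKM in NR3C2-OE. All NR3C2-OE libraries were above all Control libraries, by a log2 fold change of 0.18 (SE 0.05, 95% interval 0.03 to 0.33, edgeR adjusted p = 0.46). IFIH1 (MDA5), which binds long duplex RNA, stood at 2.74, 2.59 and 2.51 FPKM in Control and at 3.40, 2.96 and 3.13 FPKM in NR3C2-OE. These groups did not overlap either, but the count-based log2 fold change was 0.15 (SE 0.09, edgeR adjusted p = 0.673).

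RIGI, which recognises RNA with a 5′ triphosphate, varied widely within Control. It stood at 3.69, 2.83 and 0.901 FPKM in Control and at 3.04, 3.14 and 3.16 FPKM in NR3C2-OE. Control library 3 was low alone, and the NR3C2-OE values lay inside the Control range. The log2 fold change of 0.35 (SE 0.55, edgeR adjusted p = 0.898) rested on that library and was -0.10 without it. DHX58 (LGP2), a relative that modulates both helicases, stood at 3.62, 3.26 and 3.19 FPKM in Control and at 3.06, 3.47 and 3.50 FPKM in NR3C2-OE, with overlapping groups and a log2 fold change of -0.02 (SE 0.10).

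The factor that both sensing routes activate, IRF3, is regulated mainly through phosphorylation and was abundant throughout. It stood at 17.9, 17.6 and 14.8 FPKM in Control and at 17.2, 19.1 and 17.8 FPKM in NR3C2-OE, with a log2 fold change of 0.15 (SE 0.07, edgeR adjusted p = 0.613). IRF7, which is itself induced by interferon and amplifies the response, stood at 1.64, 1.41 and 1.46 FPKM in Control and at 1.64, 1.91 and 1.78 FPKM in NR3C2-OE, with a log2 fold change of 0.13 (SE 0.15). The groups overlapped in FPKM for both factors, and in CPM every NR3C2-OE library was above every Control library for IRF3. IRF1, a factor induced above all by interferon gamma, spanned 7.26 to 10.8 FPKM in Control and 7.22 to 11.1 FPKM in NR3C2-OE, and its estimated counts gave a log2 fold change of 0.01 (SE 0.06).

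The chemokine genes are early and sensitive outputs of IRF3 and NF-kB, and both were at trace levels. CXCL10, which attracts T cells, stood at 0.0618, 0.0454 and 0.0597 FPKM in Control and at 0.250, 0.110 and 0.0842 FPKM in NR3C2-OE. Its estimated counts were 8, 7 and 12 in Control and 28, 12 and 11 in NR3C2-OE. NR3C2-OE library 1 was highest. The log2 fold change was 1.28 (SE 0.52, edgeR adjusted p = 0.535), with a 95% interval from -0.16 to 2.72, and it was 0.68 without that library. The interval uses 4 residual degrees of freedom and the unadjusted p, which was below 0.05, the larger number that edgeR shares across genes, so the interval includes 0. CCL5, another T cell attractant, had estimated counts of 1, 2 and 2 in Control and of 5, 8 and 5 in NR3C2-OE and did not pass the filter for testing. All NR3C2-OE values of CCL5 lay above all Control values, at no more than 0.0706 FPKM.

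**Figure D3:**
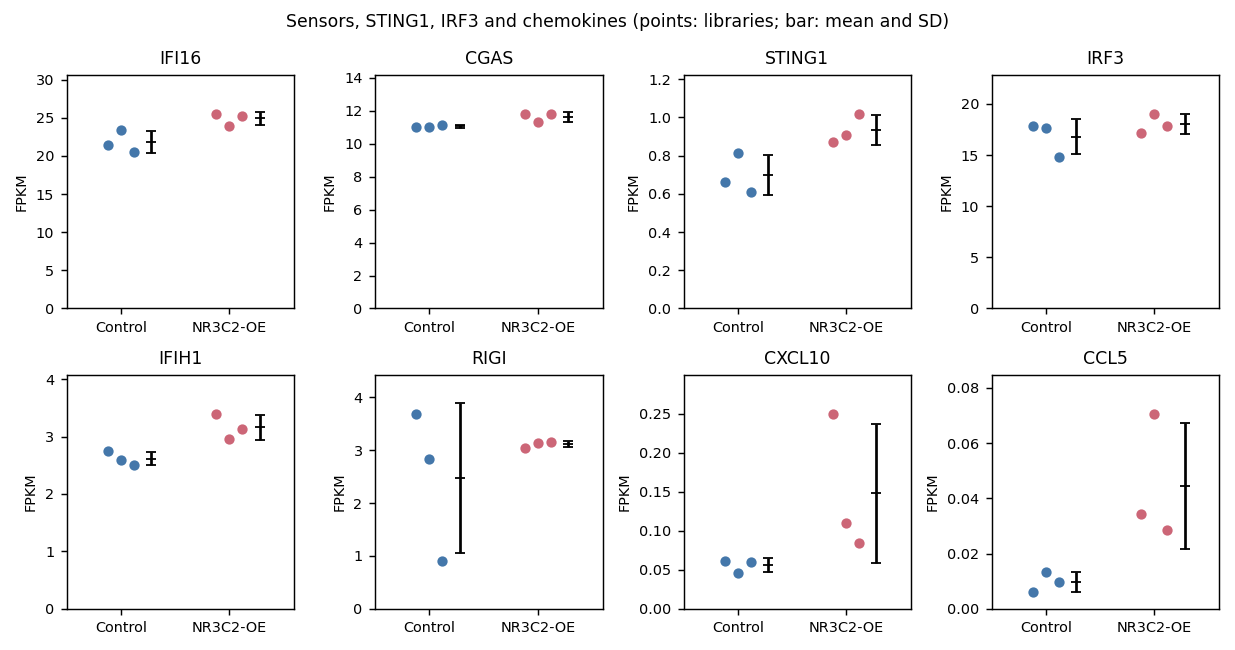
FPKM per library (y axes start at 0; points are libraries, black bars the mean and SD of 3) of the sensors IFI16, CGAS, IFIH1 and RIGI, of STING1 and IRF3, and of the chemokine genes CXCL10 and CCL5. RIGI spreads from 0.901 to 3.69 FPKM within Control, and the CXCL10 axis ends below 0.3 FPKM.

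The ISGF3 genes IRF9 and STAT2 separated by group in FPKM. IRF9, the DNA-binding subunit, stood at 1.66, 1.98 and 1.82 FPKM in Control and at 2.48, 2.72 and 2.50 FPKM in NR3C2-OE, a mean of 1.82 ± 0.158 against 2.57 ± 0.136 (SD, n = 3 each). All NR3C2-OE libraries were above all Control libraries, and the log2 fold change was 0.41 (SE 0.11, 95% interval 0.11 to 0.70). The edgeR adjusted p was 0.369 and the DESeq2 adjusted p was 0.063. A gene of the table, AL136295.5, overlaps IRF9 on the same strand and had 613, 540 and 442 estimated counts in Control and 626, 221 and 435 in NR3C2-OE. Summed with it, the log2 fold change was 0.19 (SE 0.19, edgeR adjusted p = 0.817). How reads were divided between these genes was not tested.

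STAT2, the transactivating subunit of ISGF3, stood at 5.54, 5.32 and 5.83 FPKM in Control and at 7.41, 7.09 and 7.48 FPKM in NR3C2-OE. The groups were far apart on this scale, with a log2 ratio of mean FPKM of 0.40. The estimated counts gave a log2 fold change of 0.21 (SE 0.09, edgeR adjusted p = 0.56). FPKM and counts can move apart when reads are assigned to transcripts of different length, and which measure is nearer to the RNA level was not tested. USP18, which is induced by interferon and blocks its receptor, stood between 1.54 and 1.88 FPKM in Control and between 1.58 and 1.77 FPKM in NR3C2-OE, with a log2 fold change of -0.03 (SE 0.12).

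**Figure D4:**
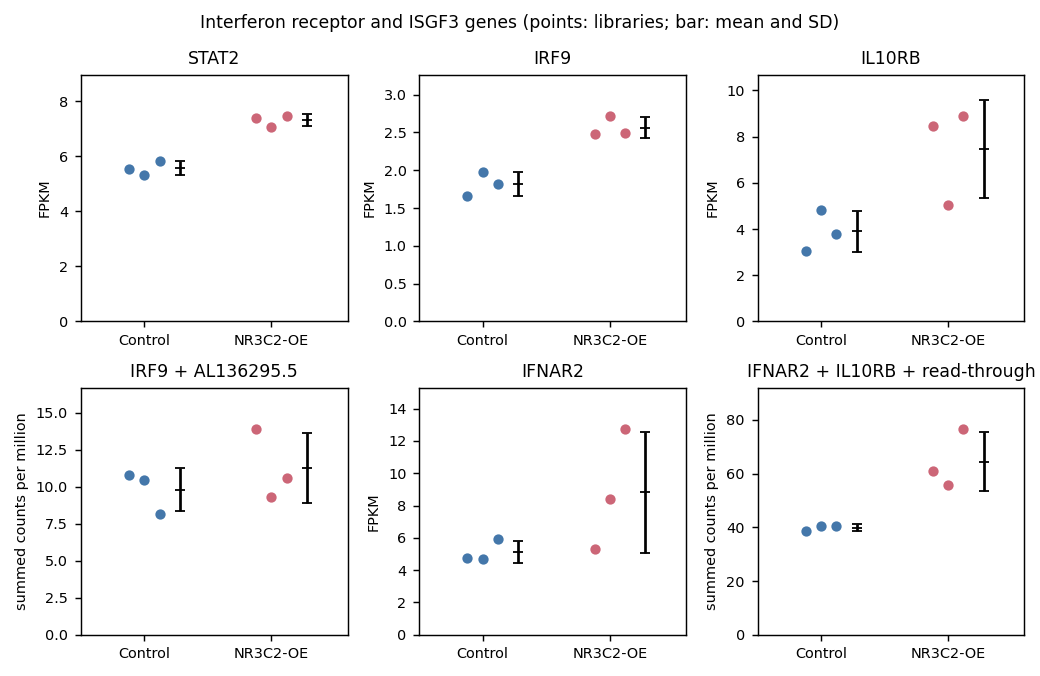
Per-library values (y axes start at 0; points are libraries, black bars the mean and SD of 3) of STAT2, IRF9, IFNAR2 and IL10RB in FPKM, and of 2 sums over overlapping genes in CPM, which is counts scaled to library size. STAT2 and IRF9 separate by group, IRF9 summed with AL136295.5 does not, and IFNAR2 summed with IL10RB and their read-through gene does.

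The antiviral effector genes that ISGF3 drives had log2 fold changes on both sides of 0, none past the test. BST2 (tetherin), which holds budding virions at the membrane, stood at 89.9, 91.5 and 89.6 FPKM in Control and at 91.4, 93.5 and 86.1 FPKM in NR3C2-OE. Its log2 fold change was -0.02 (SE 0.05, 95% interval -0.15 to 0.11), the highest gene of the programme thus being among the most tightly bounded. ISG15, a ubiquitin-like modifier, stood at 21.0, 22.6 and 22.6 FPKM in Control and at 19.8, 30.01 and 19.7 FPKM in NR3C2-OE. In FPKM NR3C2-OE library 2 alone was above the Control range, whereas in CPM all NR3C2-OE libraries were above all Control libraries, and the log2 fold change was 0.20 (SE 0.11, edgeR adjusted p = 0.657). HERC5, the ligase that attaches ISG15 to proteins, stood at 9.497, 10.9 and 10.2 FPKM in Control and at 11.4, 10.7 and 11.2 FPKM in NR3C2-OE, with a log2 fold change of 0.10 (SE 0.07). IFI6, an inhibitor of apoptosis at the mitochondrion, stood at 7.56, 11.2 and 10.9 FPKM in Control and at 9.83, 11.03 and 12.4 FPKM in NR3C2-OE, with a log2 fold change of 0.145 (SE 0.175).

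The IFIT family, which binds viral RNA ends and blocks their translation, did not move in a single direction. IFIT1 stood at 1.17, 1.12 and 1.196 FPKM in Control and at 1.07, 1.09 and 0.848 FPKM in NR3C2-OE, lower in every NR3C2-OE library, with a log2 fold change of -0.24 (SE 0.12, edgeR adjusted p = 0.631). IFIT2 stood at 1.58, 1.73 and 1.77 FPKM in Control and at 2.08, 1.85 and 1.87 FPKM in NR3C2-OE, higher in every NR3C2-OE library, with a log2 fold change of 0.18 (SE 0.11, edgeR adjusted p = 0.681). These neighbours thus lay on opposite sides of Control, neither past the test. IFIT3 and IFIT5 had log2 fold changes of 0.05 (SE 0.09) and -0.02 (SE 0.10).

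The oligoadenylate synthetases are activated by duplex RNA and make a short nucleotide messenger. OAS3 stood between 9.89 and 10.3 FPKM in Control and between 9.54 and 10.8 FPKM in NR3C2-OE, with a log2 fold change of -0.03 (SE 0.05). OAS1 spanned 1.48 to 2.84 FPKM in Control and 1.58 to 1.88 FPKM in NR3C2-OE, and OASL stayed at or below 0.361 FPKM. OAS2 had 13 estimated counts at most in any library and was not tested. OAS1 had a log2 fold change of 0.10 (SE 0.18) from counts, and its mean FPKM was higher in Control, at 2.01 against 1.75, so its direction depended on the measure.

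Of the remaining effectors, none passed the test. GBP1, a guanylate-binding GTPase responsive to interferon gamma, had the lowest estimate, at 7.23, 9.64 and 7.41 FPKM in Control and 7.30, 6.13 and 5.89 FPKM in NR3C2-OE, with a log2 fold change of -0.32 (SE 0.14, edgeR adjusted p = 0.575) and overlapping groups. IFI44 had a log2 fold change of 0.01 (SE 0.08), IFI44L of 0.00 (SE 0.14) and MX1, a dynamin-like GTPase against viruses, of -0.06 (SE 0.24). The exonuclease ISG20 was lower in FPKM in every NR3C2-OE library, at no more than 0.365 against at least 0.370 FPKM. In CPM its groups overlapped, and its log2 fold change was -0.07 (SE 0.16). The low genes RSAD2 (viperin), IFI27 and TRIM22 had log2 fold changes of 0.31 (SE 0.36), 0.50 (SE 0.41) and -0.15 (SE 0.32), and IFI27 was 0.14 without Control library 3. MX2 had estimated counts of 4 in Control library 1, 8 in NR3C2-OE library 1 and 0 in the other libraries. XAF1 had 4 in Control library 1 and 0 elsewhere, where a count of 0 allows up to 3 counts, or 0.0226 to 0.0386 CPM (counts scaled to library size) by library, and neither gene was tested.

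Counting the tested genes whose groups did not overlap in FPKM gave 6 higher in NR3C2-OE, against 9.38% of all tested genes, and 2 lower, against 6.65%. The 6 were IFIT2, IFI16, IFIH1, STAT2, IRF9 and CXCL10, and the 2 were IFIT1 and ISG20. In CPM 8 were higher, against 9.46%, and 1 lower, against 7.25%. With 3 libraries in each group, an exact permutation test cannot give a two-sided p below 0.1 for any single gene.

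**Figure D5:**
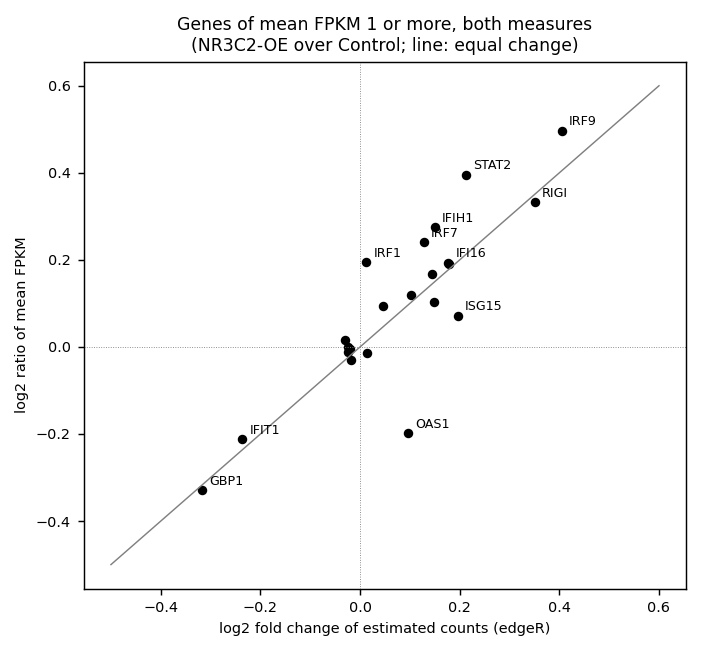
Log2 ratio of mean FPKM (y axis) against the edgeR log2 fold change of estimated counts (x axis), NR3C2-OE over Control, for the 22 genes of mean FPKM 1 or more; the line marks equal change. STAT2 and IRF1 lie above the line and OAS1 below it, and no gene departs from it by more than 0.5.

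The measures agreed within 0.5 on the log2 scale for all 22 genes of mean FPKM 1 or more, a larger gap occurring in 0.509% of such genes in the table. Read by promoter, the 16 tested genes with the ISRE letters had a median log2 fold change of 0.01, with 8 positive. The 7 tested genes with a matched promoter lacking them, namely IFI16, RSAD2, IRF1, RIGI, STAT2, OAS1 and IRF9, had a median of 0.21, with 7 positive by counts. Of these 7, OAS1, RIGI and RSAD2 hold GAAACGAAA, a form with a shorter spacer that the search did not count. On log2(FPKM + 1) OAS1 and RSAD2 were negative (-0.104 and -0.014), and RIGI was negative by counts without Control library 3. OAS3, IFI44 and IFI44L, which carry the letters, also changed sign on the FPKM scale. The difference between these sets was not tested, and the sets depend on the letters searched. IFI16, STAT2 and IRF9 therefore stood outside the set of genes with ISRE letters in this window. BST2, ISG15, OAS3, IFIT1, IFIT3 and IFIT5 stood inside it, and IFIT2 had no matched promoter. Also inside it were IFIH1 and CXCL10, which were higher in every NR3C2-OE library. IFIT1 and ISG20, lower in FPKM in every NR3C2-OE library, carried the letters too. Separation by group thus occurred both with and without the letters.

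The pathway around these genes was listed separately and gave 0 edgeR calls in any list. The upstream ligand genes were at trace levels: 8 of 15 listed interferon genes were analysed, none reached 1 FPKM, and their summed level was 0.0832 to 0.2 FPKM in Control and 0.137 to 0.264 FPKM in NR3C2-OE. IFNE, an epithelial interferon gene and the only ligand tested, had a log2 fold change of 0.67 (SE 0.59). Its estimated counts were 20, 5 and 34 in Control and 20, 16 and 36 in NR3C2-OE. The same-strand overlapping gene MIR31HG had 75, 80 and 129 in Control and 54, 63 and 54 in NR3C2-OE. Their sum was at -0.13 (SE 0.17), and MIR31HG held more of it than IFNE in every library. IFNK, IFNW1 and IFNG were each above 0 in 1 Control library and in no NR3C2-OE library, with 9 estimated counts at most. IFNA21 and IFNL2 were each above 0 in 1 NR3C2-OE library, with 1 estimated count, and IFNA5 had 0, 0 and 3 in Control and 5, 0 and 5 in NR3C2-OE.

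Receptor and JAK-STAT genes held 5 of 21 tested with an unadjusted edgeR p below 0.05 that were higher, against 4.43% of all genes, and 1 that was lower (PTPN11), against 4.76%, with a median log2 fold change of 0.08. This list shares STAT2, IRF9, USP18 and IRF1 with the genes above.

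The receptor gene IFNAR2 was the only gene of this list called by DESeq2. IFNAR2, which pairs with IFNAR1 to bind type I interferon, stood at 4.75, 4.67 and 5.90 FPKM in Control and at 5.29, 8.41 and 12.7 FPKM in NR3C2-OE. Its log2 fold change was 0.77 (SE 0.20), with a DESeq2 adjusted p of 0.0212 and an edgeR adjusted p of 0.375. Its neighbour IL10RB, a subunit of the receptor for interferon lambda, had a log2 fold change of 0.95 (SE 0.32, edgeR adjusted p = 0.481), and was at 0.51 (SE 0.26) when summed with the read-through gene described next. Reads of both genes can also be assigned to the read-through gene IFNAR2-IL10RB, which had 842, 514 and 813 estimated counts in Control and 908, 336 and 45 in NR3C2-OE. Summed over all 3 genes, the locus stood at 38.6, 40.6 and 40.6 CPM in Control and at 61.1, 55.6 and 76.6 in NR3C2-OE, a log2 ratio of means of 0.69 with no overlap. This sum was chosen after its values were seen and was not tested. IRF2, an antagonist of IRF1, had a log2 fold change of 0.47 (SE 0.16, edgeR adjusted p = 0.485).

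The DNA sensing list shares IFI16 and IRF3 with the genes above. CGAS stood at a mean of 11.1 ± 0.0903 FPKM in Control and of 11.65 ± 0.305 FPKM in NR3C2-OE (SD, n = 3), with a log2 fold change of 0.05 (SE 0.06). STING1 stood at 0.664, 0.815 and 0.611 FPKM in Control and at 0.873, 0.908 and 1.02 FPKM in NR3C2-OE. It was higher in every NR3C2-OE library in FPKM, but the groups overlapped in CPM. Its log2 fold change was 0.16 (SE 0.14, edgeR adjusted p = 0.79). TBK1 was at 15.8 ± 1.43 FPKM in Control and 16.05 ± 0.358 in NR3C2-OE (SD, n = 3). STING1 was thus the lowest of these 3 steps per length in every library. Of 21 tested genes in this list, 5 were higher at an unadjusted p below 0.05 and 0 lower, against 4.43% and 4.76% of all genes, with a median log2 fold change of 0.07. Beside IFI16 these were the ubiquitin ligase TRIM56 at 0.19 (SE 0.06), the ribonuclease H2 subunits RNASEH2A at 0.15 (SE 0.05) and RNASEH2C at 0.46 (SE 0.18), and the Toll-like receptor chaperone UNC93B1 at 0.21 (SE 0.07), each with an edgeR adjusted p of 0.46 or more.

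Of the RNA sensing adaptors and regulators, 0 of 20 tested were higher and 1 was lower at an unadjusted p below 0.05, against 4.43% and 4.76% of all genes, with a median log2 fold change of 0.01. The gene below that threshold was PRKRA, an activator of the RNA-dependent kinase EIF2AK2, at -0.16 (SE 0.05, edgeR adjusted p = 0.486). MAVS, the mitochondrial adaptor of RIGI and IFIH1, stood at 13.2 ± 0.413 FPKM in Control and 14.1 ± 0.384 in NR3C2-OE (SD, n = 3).

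A wider list of interferon-stimulated genes held none of the genes described above. Of 36 tested, 1 was higher and 0 lower at an unadjusted p below 0.05, against the same shares, with a median log2 fold change of 0.03 (23 positive, 13 negative). That gene was PARP14, an ADP-ribosyltransferase, at 8.77, 8.71 and 9.03 FPKM in Control and 10.7, 10.2 and 13.5 FPKM in NR3C2-OE. Its log2 fold change was 0.21 (SE 0.04), with an edgeR adjusted p of 0.311 and a DESeq2 adjusted p of 0.046. The next smallest p-values belonged to CMPK2, DTX3L and APOL2, with log2 fold changes of 0.28 (SE 0.13), 0.12 (SE 0.06) and 0.15 (SE 0.07).

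Markers of other cells that make or answer to interferon were measured in the same libraries. Of 4 macrophage and monocyte genes analysed, CD68 stood at 20.8 to 21.0 FPKM in Control and 23.9 to 30.6 FPKM in NR3C2-OE. Its DESeq2 adjusted p was 0.0405 and its edgeR adjusted p was 0.338. CD14 and LYZ were at or below 0.365 FPKM and CSF1R below 1. The defining plasmacytoid dendritic cell genes IL3RA and IRF8 were at or below 0.0198 FPKM. The broader marker TCF4 was at 0.666 to 1.10 FPKM with overlapping groups. In CPM TCF4 was lower in every NR3C2-OE library, with a log2 fold change of -0.56 (SE 0.25, edgeR adjusted p = 0.5625). All 4 T and NK cell genes and all 6 endothelial genes were below 1 FPKM. Of 6 fibroblast genes, LUM, COL1A1 and DCN exceeded 1 FPKM, with summed levels of 12.6 to 15.5 FPKM in Control and 14.0 to 14.9 FPKM in NR3C2-OE. The part of such cells in the values above was not tested.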

How the data were processed

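The authors deposited a table of 37202 genes with an FPKM value and a whole-number estimated count per library, per the file headers. Per the submitters' processing notes, cutadapt 1.2.1 removed adapters. Aligner, counter and build: not given in the sources used here. Strand-specific, paired-end libraries were made, per the labels' protocols, but whether counting used strand is not stated. Reads of the 9 genes overlapped on the opposite strand therefore cannot be told from those of the partner. Examples are IFIT1, IFIT2 and IFIT3 with LIPA, and IRF3 with BCL2L12. The estimated counts pile up on multiples of 4 (8694 values of 4 against 5772 of 3), so they overstate independent fragments. The limit given for a count of 0 covers counting error only. Rows with no Ensembl number held 2.88% to 2.98% of counts and were kept.

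Counts were tested with edgeR 4.0.16 (filterByExpr, TMM, glmQLFit, glmQLFTest; group only; two-sided) in R 4.3.3, with Benjamini-Hochberg adjustment over 21509 genes at 0.05. Standard errors come from the F statistics and 95% intervals use 4 residual degrees of freedom. Alternatives used DESeq2 1.42.0 and limma 3.58.1 on log2(FPKM + 1) or log2(FPKM + 0.1). Sums with same-strand overlapping genes were added after seeing the data. Scripts were tested on simulated data. Genes given in every library were those separated in FPKM at a mean of 1 or more, those with an unadjusted p below 0.05, the 6 highest, the chemokines, the sensors, IRF3 and IRF7; GBP1, STING1 and other genes outside the rule were chosen after their values were seen. The genes and lists were chosen with earlier results of these data known. A few listed genes are not reported here by name, though the counts over their lists include them.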

Additional observations from a re-analysis of the deposited data

How the results depend on the processing

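No interferon response or sensor gene passed the adjusted test under any of the 17 alternatives, and 466 of 507 gene-by-setting values kept their direction. Under DESeq2, CXCL10 and RSAD2 had no adjusted p. Over all genes, 6 were called; leaving out a library gave 5 to 18, DESeq2 317, log2(FPKM + 0.1) 11 and log2(FPKM + 1) without a filter 0. The number higher at an unadjusted p below 0.05 was 1 to 4 when a library was left out and 5 on log2(FPKM + 1) without a filter; the number lower was 0 to 1, and 1 without a filter and under DESeq2. The median log2 change was 0.051 to 0.101 with a library left out, 0.047 with at least 50 counts in 3 libraries, 0.050 on log2(FPKM + 1) and 0.043 on that scale without a filter.

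With the replicate number as a block, 0 genes were called. Same-numbered libraries deviated together with correlations of only 0.027, 0.016 and 0.004, and different-numbered libraries with -0.037 to 0.023. The labels state no pairing, and correlations over 3 libraries a group cannot decide whether there was one. IFI44L was 0.01 under the block.

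On log2(FPKM + 1), log2(FPKM + 0.1) and log2(FPKM + 1) without a filter, the direction turned for OAS1 (-0.104, -0.138, -0.104), OAS3 (0.012, 0.013, 0.012), RSAD2 (-0.014, -0.076, -0.014), IFI44 (-0.012, -0.015, -0.012), IFI44L (0.056, 0.129, 0.056) and TRIM22 (0.016, 0.049, 0.016). With a library left out the log2 changes that crossed 0 ran from -0.019 to 0.136 for IFIT3, -0.064 to 0.065 for IFIT5, -0.125 to 0.005 for ISG20, -0.282 to 0.109 for MX1, -0.098 to 0.193 for OAS1, -0.023 to 0.175 for OASL, -0.018 to 0.242 for IFI6, -0.029 to 0.045 for IFI44, -0.113 to 0.128 for IFI44L, -0.099 to 0.752 for RIGI, -0.076 to 0.023 for DHX58, -0.027 to 0.040 for IRF1, -0.082 to 0.069 for USP18, -0.044 to 0.011 for BST2 and -0.338 to 0.127 for TRIM22. The causes were not tested. Estimates near 0 at 3 libraries a group cannot show a direction, and the genes below 1 FPKM are the least certain.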

Other observations

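Antigen presentation genes, many of them induced by interferon gamma, gave 2 of 19 tested genes higher and 0 lower at an unadjusted edgeR p below 0.05, against 4.43% and 4.76% of all genes, with a median log2 fold change of -0.01. PSMB10, a catalytic subunit of the immunoproteasome, stood at 24.6, 24.3 and 28.9 FPKM in Control and at 32.4, 32.7 and 34.1 FPKM in NR3C2-OE. Its log2 fold change was 0.33 (SE 0.08, edgeR adjusted p = 0.356). PSME2, a subunit of the proteasome activator, stood at 77.1, 79.5 and 67.2 FPKM in Control and at 95.8, 85.1 and 87.3 FPKM in NR3C2-OE, with a log2 fold change of 0.24 (SE 0.09, edgeR adjusted p = 0.513). Both were higher in 3 of 3 libraries. The peptide transporter subunit TAP2 and the aminopeptidase ERAP2 had log2 fold changes of -0.41 (SE 0.17) and 0.08 (SE 0.06). Summed with the same-strand gene AL669918.1, which had 194 estimated counts in NR3C2-OE library 1 and 0 elsewhere, TAP2 was at -0.07 (SE 0.25).

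The NF-kB arm that nucleic acid sensors share with other danger signals gave 1 of 14 genes higher (BIRC3, an inhibitor of apoptosis, log2 fold change 0.18, SE 0.05) and 2 lower at the same threshold, again against 4.43% and 4.76% of all genes, with a median of -0.06. IL6 stood at 265.7, 273.8 and 273.8 FPKM in Control and at 213.8, 240.4 and 227.7 FPKM in NR3C2-OE, lower in 3 of 3 libraries. Its log2 fold change was -0.26 (SE 0.05), with a DESeq2 adjusted p of 0.0145 and an edgeR adjusted p of 0.263. CXCL8, a neutrophil attractant, stood at 1008, 1122 and 1083 FPKM in Control and at 918.9, 893.5 and 1003 FPKM in NR3C2-OE, with a log2 fold change of -0.21 (SE 0.06, edgeR adjusted p = 0.455). The cytokine genes CCL2, CCL20 and TNF of the same arm overlapped between the groups.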
